A study of Mus musculus with 7 samples.

Results

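Replication-dependent histone genes are the clustered genes whose symbols start with Hist1h, Hist2h, Hist3h or Hist4h, and 70 of the 49382 gene rows of the deposited table carried such a symbol. They comprise 6 H1, 20 H2A, 19 H2B, 12 H3 and 13 H4 genes. Levels are described for the 16 that averaged 2 TPM or more over 7 libraries (TPM is the transcript share of a library, corrected for transcript length), namely 2 H1, 4 H2A, 3 H2B, 3 H3 and 4 H4 genes. Of the other 54, 13 were at 0 in every library and 41 were above 0 in some library but under a mean of 2 TPM.

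The libraries came from wild-type mouse embryonic fibroblasts (MEFs), primary connective-tissue cells grown from mid-gestation embryos and used after a few passages. One library was made from control cells, and 1 from cells under each of 6 stresses. Glucose depletion, glutamine depletion, hypoxia at 0.1% oxygen and ER stress from 1 μM thapsigargin, which empties ER calcium stores, lasted 10 h. Oxidative stress from 10 μM sodium arsenite and osmotic stress from 100 mM added NaCl lasted 3 h. No time is given here for the control. Every comparison uses the same control library and has no replicate, so values are given without a test, the spread between cultures is unknown, and 3 h and 10 h stresses differ in time as well as in agent. Fibroblast markers were high in every library, with Col1a1 between 1740 and 3629 TPM, while the defining macrophage markers Ptprc and Adgre1 were at or below 0.280 TPM and 7 macrophage markers summed to at most 16.6 TPM.

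Replication-dependent histones supply the bulk of chromatin protein while DNA is copied. Their genes lie in clusters, mostly lack introns, and give mRNAs that end in a conserved stem-loop, bound by SLBP, instead of a poly(A) tail. A minority also make polyadenylated mRNA, and most replacement (variant) histone genes outside the clusters make polyadenylated mRNA throughout. The libraries were built from poly(A)-selected RNA, so the values describe what was captured through a tail or beside it, not the whole histone mRNA pool.

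The stem-loop is the feature that the capture step bears on, so it was looked up in the annotated transcripts (GENCODE M21, build GRCm38), which held 68 of the 70 genes. It was present in 43 of the 68, and in 15 of the 16 described genes. A stem-loop beyond an annotated end would be missed. Transcripts without a match include short ones, such as 312 bases for Hist1h4k and 381 for Hist1h2bn. Windows for 1 gene of each type with a stem-loop are shown 5′ to 3′ as DNA, with the stem-loop in capitals and up to 5 bases on each side.
Hist1h1c (chr13:23739507-23739532, plus strand): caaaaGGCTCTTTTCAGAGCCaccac
Hist2h2aa2 (chr3:96239779-96239804, minus strand): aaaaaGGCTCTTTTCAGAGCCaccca
Hist1h2bg (chr13:23571838-23571863, plus strand): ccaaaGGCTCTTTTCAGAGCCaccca
Hist1h3d (chr13:23576239-23576264, plus strand): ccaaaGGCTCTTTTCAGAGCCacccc
Hist1h4n (chr13:21831793-21831818, minus strand): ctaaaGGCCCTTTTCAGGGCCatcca
Hist1h4i (chr13:22040961-22040986, minus strand): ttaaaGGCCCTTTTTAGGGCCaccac
The first 4 windows share the same 16 capital letters. The H4 stem-loops differed from the rest in the stem: 10 began with GGCCC and 2 with GGTCC, whereas all 31 stem-loops of the H1, H2A, H2B and H3 genes began with GGCTC.

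The sequence that directs cleavage and polyadenylation of ordinary mRNAs, AATAAA or its common variant ATTAAA, was found in the last 40 annotated bases of 4 of the 16 described genes (25%) and of 12 of the 52 annotated genes under the filter. Among 11284 other protein-coding genes averaging 2 TPM or more, 71.9% had it at the end of their longest transcript. A signal beyond a short annotated end would be missed here too. The 4 windows are shown with the signal in capitals, as the places where an annotated histone transcript could end in a tail.
Hist1h1c (chr13:23740330-23740359, plus strand): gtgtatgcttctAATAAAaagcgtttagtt
Hist1h4i (chr13:22040639-22040668, minus strand): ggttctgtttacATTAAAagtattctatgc
Hist3h2a (chr11:58956785-58956814, plus strand): aggtatatgcccAATAAAataagagtacgt
Hist1h4h (chr13:23531476-23531505, plus strand): ccacattttcttATTAAAagagcgaacatg
These 4 transcripts continue past the stem-loop for 840 bases in Hist1h1c, 330 in Hist1h4i, 1643 in Hist3h2a and 46 in Hist1h4h. Hist1h2bc had no stem-loop in its only annotated transcript, which is spliced, joining a first exon at chr13:23684199-23684621 to a second of 733 bases at chr13:23692176-23692908 across a gap of 7554 bases. Neither AATAAA nor ATTAAA lay in its last 40 bases.

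**Figure D1:**
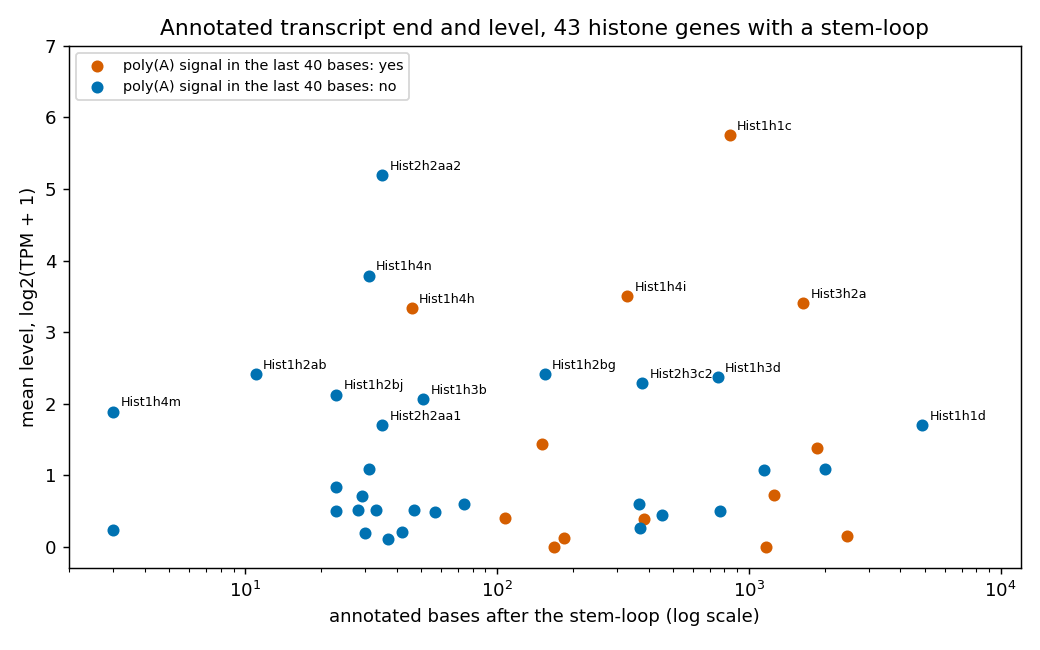
Mean level over 7 libraries, as log2(TPM + 1), against the number of annotated bases after the stem-loop (log scale) for the 43 histone genes with a stem-loop, coloured by whether a poly(A) signal lies in the last 40 bases. The 15 named genes have a mean of at least 2 TPM, and Hist2h2aa2, with 35 bases after the stem-loop and no signal, is the second highest after Hist1h1c.

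Of the 16 genes, 12 lie on chromosome 13, 3 on chromosome 3 and 1 on chromosome 11. Near-identical copies limit what each row means. Kallisto assigns reads by stretches of 31 bases, and 9 of the 16 genes had fewer than 50% of their 31-base stretches to themselves when both strands of all annotated transcripts were searched. Hist2h2aa1 and Hist2h2aa2 had 0%: all of Hist2h2aa2 is found in Hist2h2aa1, and all of Hist2h2aa1 in the antisense gene Gm20633. Hist1h4m had 8.33% and Hist1h4n 12.5%, with 85.2% of Hist1h4n found in Hist1h4m. Hist1h1d with 96.3%, Hist1h1c with 88.6% and Hist1h2bc with 65.5% were better separated.

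Upstream sequence differed by type in a way that the choice of genes did not use. In windows from 250 bases before to 50 after the RefSeq start (GRCm38.p6), 62 promoters of 61 members were matched, including those of 15 of the 16 described genes but not Hist1h2bc. Searched on both strands, the CCAAT box was in every matched promoter of the H1, H2A, H2B and H3 genes and in 3 of 12 H4 promoters, against 37.4% of all 32851 RefSeq promoters. The TATA sequence TATAAA was in 56.5% of the histone promoters against 13.6%. The octamer ATTTGCAT was in 7 of 17 H2A and 7 of 17 H2B promoters, in no H1, H3 or H4 promoter, and in 1.74% of all. Some H2A and H2B windows overlap, as those of Hist1h2ae and Hist1h2bg do, so the same match can count in both types. These are matches of letters, and binding was not measured. The 250 bases before the start are shown for Hist1h2ab, Hist1h3d and Hist1h4n, all past 2-fold up in hypoxia. Hist1h4n is an H4 gene without a CCAAT match. All matches to the 3 sequences are in capitals, on either strand.
Hist1h2ab (chr13:23750838-23751087, plus strand): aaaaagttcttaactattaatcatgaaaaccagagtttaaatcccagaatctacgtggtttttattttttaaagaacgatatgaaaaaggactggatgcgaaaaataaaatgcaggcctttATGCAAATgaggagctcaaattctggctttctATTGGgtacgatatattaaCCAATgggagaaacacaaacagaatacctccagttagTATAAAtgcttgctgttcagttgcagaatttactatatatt
Hist1h3d (chr13:23575513-23575762, plus strand): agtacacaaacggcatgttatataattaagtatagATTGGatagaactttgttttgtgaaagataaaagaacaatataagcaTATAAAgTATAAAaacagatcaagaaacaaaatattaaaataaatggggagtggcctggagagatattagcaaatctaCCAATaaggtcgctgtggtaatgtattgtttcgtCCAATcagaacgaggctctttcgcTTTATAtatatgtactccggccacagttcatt
Hist1h4n (chr13:21832198-21832447, minus strand): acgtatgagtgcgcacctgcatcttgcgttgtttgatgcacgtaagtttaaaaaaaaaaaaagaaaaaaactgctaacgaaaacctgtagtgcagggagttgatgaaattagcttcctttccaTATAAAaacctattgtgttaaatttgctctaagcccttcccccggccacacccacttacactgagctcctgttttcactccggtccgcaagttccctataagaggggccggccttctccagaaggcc

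One gene made up about as much of the histone signal as all others together. Hist1h2bc held between 49.6% and 58.0% of the summed TPM of the 16 genes in each library, and with Hist1h1c between 63.0% and 74.3%. The sum over the 16 was 327 TPM in control, 288 in glucose depletion, 358 in glutamine depletion, 440 in hypoxia, 408 in ER stress, 293 in oxidative stress and 315 in osmotic stress. Hypoxia and ER stress gave the highest sums and the other stresses stayed nearer to control. In bulk RNA, a change in how many cells were in S phase and a change in RNA per cell cannot be told apart.

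**Figure D2:**
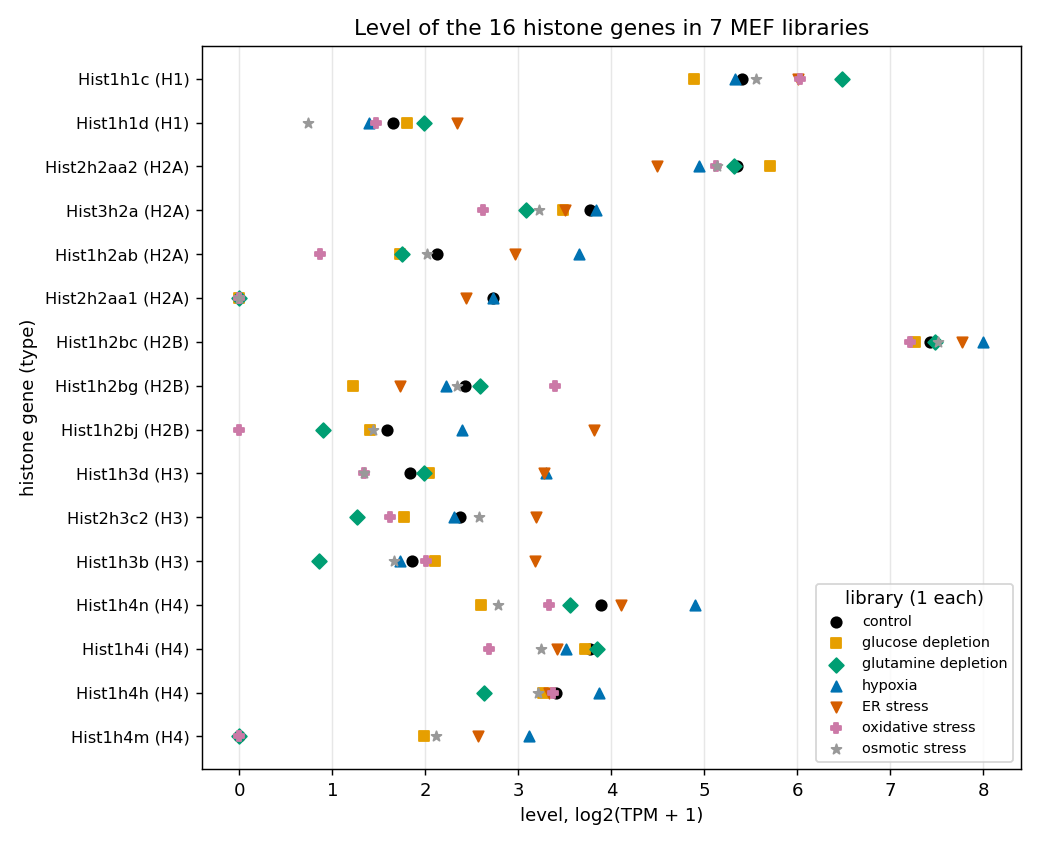
Level of each of the 16 histone genes, as log2(TPM + 1), in each of 7 MEF libraries, with 1 marker per library and the histone type in brackets. Hist1h2bc lies apart at 147 to 255 TPM, Hist1h1c and Hist2h2aa2 come next, and the other 13 reach at most 28.8 TPM.

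H1 proteins are linker histones, which bind DNA where it enters and leaves the nucleosome. Hist1h1c (also called H1f2) had 41.3 TPM in control, 28.6 in glucose depletion, 88.3 in glutamine depletion, 39.1 in hypoxia, 63.1 in ER stress, 64.3 in oxidative stress and 46.2 in osmotic stress. Its level without glutamine was the highest of the 7, and on the log2(TPM + 1) scale it was 1.08 above control. ER stress and oxidative stress gave smaller differences of 0.60 and 0.63. Hist1h1d had 2.14 TPM in control, 2.48 in glucose depletion, 2.95 in glutamine depletion, 1.62 in hypoxia, 4.07 in ER stress, 1.78 in oxidative stress and 0.672 in osmotic stress. The log2 differences of Hist1h1d stayed within 2-fold, from -0.91 in osmotic stress to 0.69 in ER stress.

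H2A pairs with H2B on the outside of the nucleosome. Hist2h2aa2 had 39.8 TPM in control, 51.0 in glucose depletion, 38.8 in glutamine depletion, 29.8 in hypoxia, 21.5 in ER stress, 34.0 in oxidative stress and 34.2 in osmotic stress. It was lowest in ER stress, by 0.86 on the log2 scale, which is within 2-fold. Hist2h2aa1, its near-identical neighbour, had 5.63 TPM in control, 5.64 in hypoxia and 4.40 in ER stress. It was listed at 0 in glucose depletion, oxidative stress and osmotic stress and at a value that rounds to 0 in glutamine depletion. The 2 rows summed to 45.5 TPM in control, 51.0 in glucose depletion, 38.8 in glutamine depletion, 35.4 in hypoxia, 25.9 in ER stress, 34.0 in oxidative stress and 34.2 in osmotic stress, none of them past 2-fold. Where Hist2h2aa1 was at or rounding to 0, the sum was above control in glucose depletion. It was below control in glutamine depletion, oxidative stress and osmotic stress, within 2-fold. How shared reads were divided between the 2 rows was not tested. Other transcripts at this place also had values. The readthrough transcript Gm20634 had 6.35 to 14.9 TPM and the antisense Gm20632 had 2.49 to 4.75 TPM. Gm20633, which holds the whole Hist2h2aa1 sequence, had 0.374 TPM in control, 2.00 in glucose depletion, 0.967 in glutamine depletion, 0.524 in hypoxia, 0.665 in ER stress, 2.01 in oxidative stress and 0.284 in osmotic stress.

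Hist3h2a, a solitary H2A gene on chromosome 11, had 12.6 TPM in control, 10.1 in glucose depletion, 7.47 in glutamine depletion, 13.3 in hypoxia, 10.3 in ER stress, 5.16 in oxidative stress and 8.33 in osmotic stress. It was 1.15 lower on the log2 scale in oxidative stress. A small RNA gene annotated on the opposite strand inside it, Gm44313, had 22.7 TPM in control and 2.52 in oxidative stress, and 32.1% of the 31-base stretches of Hist3h2a are shared with Trim17 on its own strand, which had at most 1.65 TPM. The part of these overlaps in the Hist3h2a values was not tested. Hist1h2ab had 3.38 TPM in control, 2.30 in glucose depletion, 2.36 in glutamine depletion, 11.5 in hypoxia, 6.79 in ER stress, 0.818 in oxidative stress and 3.05 in osmotic stress. Among these genes with a value in every library it had the widest range, 14.1-fold from oxidative stress to hypoxia, with log2 differences from control of -1.27 and 1.52. Only 37.0% of the 31-base stretches of Hist1h2ab were its own. It shares 62.5% with Hist1h2ad, which was above 0 only in hypoxia, at 1.10 TPM. The part of shared reads in the Hist1h2ab values was not tested.

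H2B genes were led by Hist1h2bc, with 171 TPM in control, 153 in glucose depletion, 178 in glutamine depletion, 255 in hypoxia, 218 in ER stress, 147 in oxidative stress and 182 in osmotic stress. Its range was the narrowest of the 16, 1.74-fold from oxidative stress to hypoxia, and no condition was past 2-fold. Hist1h2bg had 4.39 TPM in control, 1.33 in glucose depletion, 5.00 in glutamine depletion, 3.65 in hypoxia, 2.31 in ER stress, 9.504 in oxidative stress and 4.07 in osmotic stress. It was the gene that stood highest over control in oxidative stress, by 0.96 on the log2 scale, and was 1.21 lower without glucose. Hist1h2bj had 2.00 TPM in control, 1.65 in glucose depletion, 0.863 in glutamine depletion, 4.26 in hypoxia, 13.1 in ER stress and 1.71 in osmotic stress, and was listed at 0 in oxidative stress. ER stress stood apart from the other 6 libraries for Hist1h2bj, with a log2 difference of 2.23 from control. Without that library its mean was 1.75 TPM, so the same library let it past the cut of 2 TPM. The 3 H2B rows differed in the 1 library of oxidative stress: Hist1h2bg was the highest of its 7 values while Hist1h2bj was listed at 0. Only 43.7% of the 31-base stretches of Hist1h2bg and 32.8% of those of Hist1h2bj were their own. Hist1h2br, which shares 66.7% of the stretches of Hist1h2bj, had 0.218 TPM in control and 1.44 in oxidative stress. The part of shared reads in these differences was not tested.

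H3, which with H4 forms the core tetramer and carries many of the known regulatory modifications, was measured at low levels throughout. Hist1h3d had 2.58 TPM in control, 3.11 in glucose depletion, 2.97 in glutamine depletion, 8.81 in hypoxia, 8.66 in ER stress, 1.52 in oxidative stress and 1.53 in osmotic stress. Hist2h3c2 had 4.19 TPM in control, 2.40 in glucose depletion, 1.40 in glutamine depletion, 3.94 in hypoxia, 8.09 in ER stress, 2.08 in oxidative stress and 4.96 in osmotic stress. Hist1h3b had 2.63 TPM in control, 3.30 in glucose depletion, 0.808 in glutamine depletion, 2.31 in hypoxia, 8.05 in ER stress, 3.02 in oxidative stress and 2.16 in osmotic stress. In ER stress all 3 H3 genes had more than 8 TPM, with log2 differences of 1.43, 0.81 and 1.32 in the order given. In glutamine depletion, Hist2h3c2 and Hist1h3b were lower by 1.11 and 1.01 while Hist1h3d was 0.15 higher. In hypoxia only Hist1h3d of the 3 was past 2-fold, at 1.46. Of the 31-base stretches of Hist2h3c2, 64.2% are shared with Gm20634, which had 7.55 TPM in control and 13.1 in ER stress. Hist1h3b shares 51.5% with Hist1h3h, which was above 0 only in ER stress, at 1.27 TPM. The part of shared reads in the H3 values was not tested.

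Among the H4 genes, Hist1h4n had 13.8 TPM in control, 5.07 in glucose depletion, 10.7 in glutamine depletion, 28.8 in hypoxia, 16.2 in ER stress, 9.09 in oxidative stress and 5.90 in osmotic stress. It was 1.01 above control in hypoxia and 1.29 and 1.10 below it in glucose depletion and osmotic stress. Its near copy Hist1h4m was listed at 0 in control, glutamine depletion and oxidative stress, and had 2.95 TPM in glucose depletion, 7.69 in hypoxia, 4.93 in ER stress and 3.33 in osmotic stress. With control at 0, no fold is given for Hist1h4m, and its log2(TPM + 1) differences, up to 3.12 in hypoxia, depend on the pseudocount. Summed, this pair had 13.8 TPM in control, 8.02 in glucose depletion, 10.7 in glutamine depletion, 36.5 in hypoxia, 21.1 in ER stress, 9.09 in oxidative stress and 9.23 in osmotic stress. The sum was past 2-fold in hypoxia, at 1.34, and not in the other conditions.

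Hist1h4i had 12.6 TPM in control, 12.1 in glucose depletion, 13.4 in glutamine depletion, 10.4 in hypoxia, 9.70 in ER stress, 5.44 in oxidative stress and 8.47 in osmotic stress. It was 1.08 lower in oxidative stress, and the other 5 differences lay within 2-fold. Hist1h4h had 9.60 TPM in control, 8.61 in glucose depletion, 5.19 in glutamine depletion, 13.6 in hypoxia, 9.05 in ER stress, 9.37 in oxidative stress and 8.29 in osmotic stress. None of its differences was past 2-fold, the lowest being -0.78 in glutamine depletion. In hypoxia these 2 H4 genes, both with an annotated poly(A) signal, differed from control by -0.25 and 0.46, where the Hist1h4m and Hist1h4n pair was past 2-fold.

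**Figure D3:**
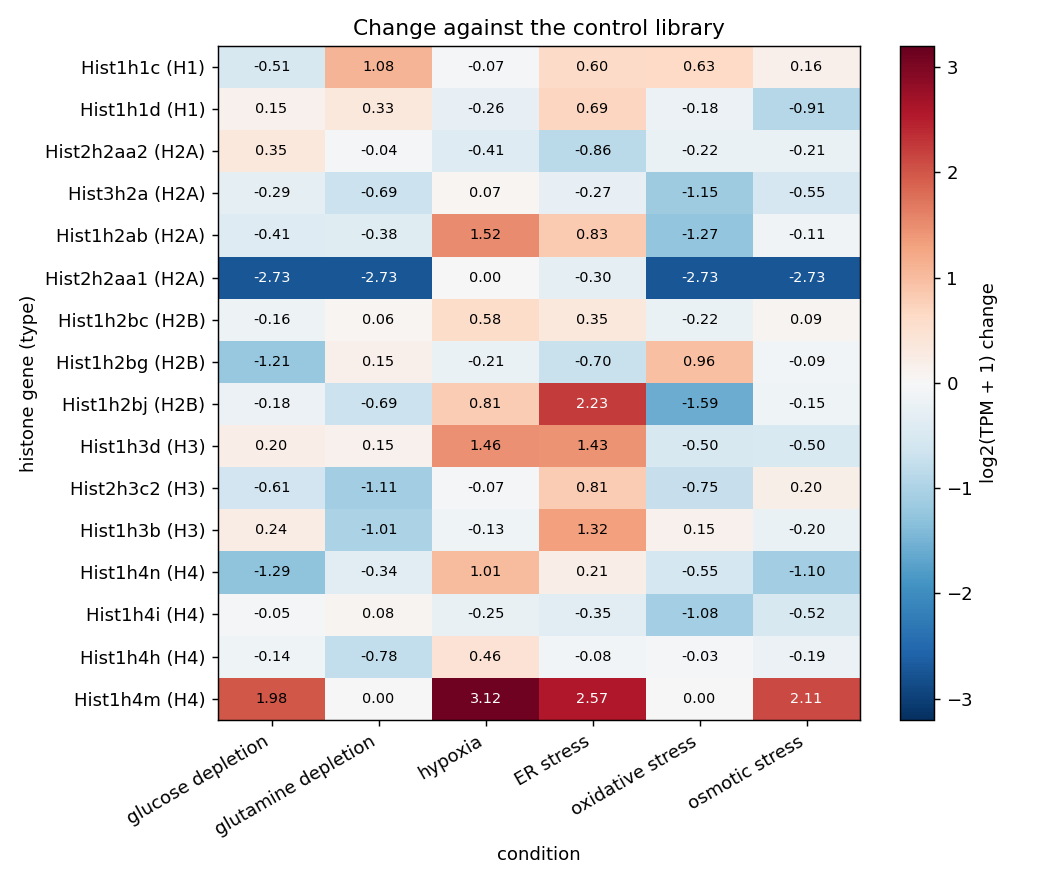
Difference of log2(TPM + 1) from the control library for the 16 histone genes in 6 conditions, with the value printed in each cell and genes grouped by type. Red cells are concentrated in the hypoxia and ER stress columns, and the 4 equal cells of -2.73 for Hist2h2aa1 are values at or rounding to 0.

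Counted past 2-fold, the genes went different ways in different conditions. In glucose depletion 1 of 16 was up, against 1.83% of the 12909 genes averaging 2 TPM or more, and 3 were down, against 2.41%. For glutamine depletion 1 was up, against 3.21%, and 3 were down, against 3.21%. In hypoxia 4 were up, against 3.57%, and 0 down, against 2.64%. ER stress had 4 up, against 8.6%, and 0 down, against 11.0%. Under oxidative stress 0 were up, against 3.94%, and 5 were down, against 4.85%. Osmotic stress had 1 up, against 3.08%, and 2 down, against 8.76%. Each gene is 6.25% of the 16, so 1 gene alone lifts their share over that of all genes in several of these counts. The counts of 4 and 5 genes were shares of 25% and 31.2%. Hist1h4m, at 0 in control, is among the genes up in glucose depletion, hypoxia, ER stress and osmotic stress, and Hist2h2aa1 is among those down in every condition but hypoxia and ER stress. Moreover, 4 of the 16, namely Hist1h1d, Hist2h2aa1, Hist1h2bj and Hist1h4m, averaged less than 2 TPM once their highest library was left out, so that this library let them in. It was ER stress for Hist1h1d and Hist1h2bj, and hypoxia for Hist2h2aa1 and Hist1h4m. Hist1h2bj in ER stress and Hist1h4m in hypoxia are thus counted up in the library that let them in. The genes nearest to the cut had means of 2.24 TPM in Hist2h2aa1 and Hist1h1d just inside it, and 1.72 in Hist1h2ae and 1.60 in Hist1h2br just outside it.

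**Figure D4:**
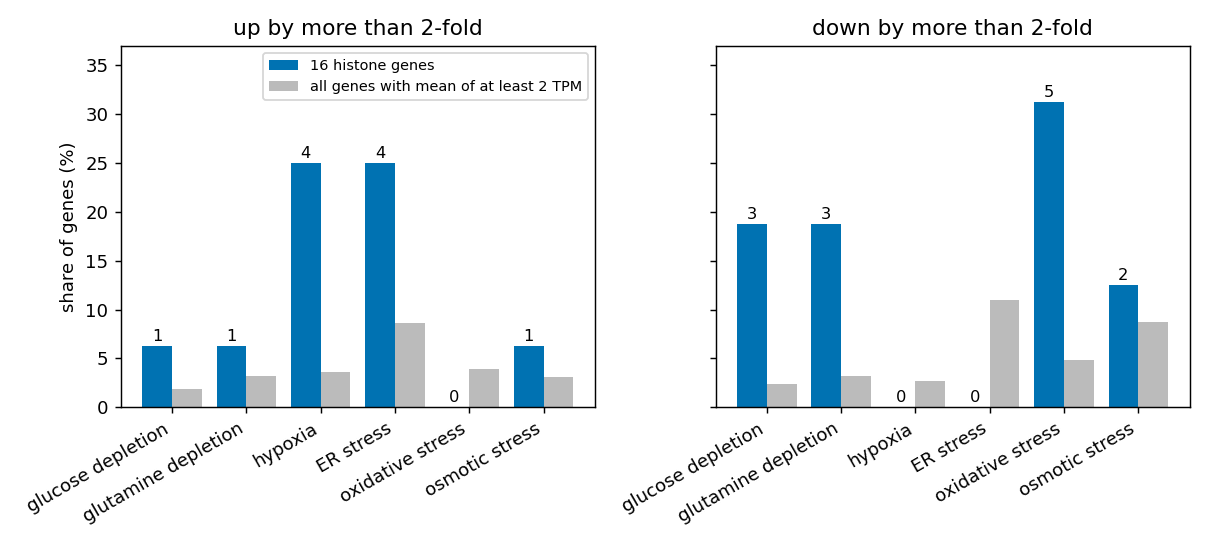
Share of the 16 histone genes (blue, with their number) and of all genes averaging 2 TPM or more (grey) that were more than 2-fold above or below control, in percent, for 6 conditions. Hypoxia and ER stress have 4 histone genes up and 0 down, and oxidative stress has 0 up and 5 down.

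The genes behind these counts differed between conditions. Those up in hypoxia were Hist1h2ab, Hist1h3d, Hist1h4n and Hist1h4m, and those up in ER stress were Hist1h3b, Hist1h3d, Hist1h2bj and Hist1h4m. Down in oxidative stress were Hist1h4i, Hist1h2ab, Hist2h2aa1, Hist1h2bj and Hist3h2a. Over the 6 conditions, 12 genes passed 2-fold at least once, 4 of them both up and down, while Hist1h1d, Hist1h2bc, Hist1h4h and Hist2h2aa2 never did.

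Medians over the 16 genes were smaller than these extremes. The median log2 difference was -0.17 in glucose depletion, where the median over all 12909 genes was -0.02. In glutamine depletion it was -0.19 against -0.09, and in hypoxia 0.03 against -0.05. ER stress gave 0.48 against 0.00, with 10 of the 16 above control. Oxidative stress gave -0.36 against -0.16, with 12 of the 16 below control, and osmotic stress -0.20 against -0.12, also with 12 below. The all-gene median moved by more than 0.1 in oxidative and osmotic stress, and centred on it the histone medians there were -0.21 and -0.08.

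Sums by type over the described genes depend less on how reads are divided among those of 1 type. Reads assigned to copies under the filter are not in these sums. The types differed in which condition was highest. H3 went from 9.40 TPM in control to 24.8 in ER stress and 15.1 in hypoxia, with 8.81 in glucose depletion, 5.17 in glutamine depletion, 6.63 in oxidative stress and 8.64 in osmotic stress. Its log2 difference of 1.31 in ER stress was past 2-fold. In glutamine depletion the H3 difference was -0.75, but -0.08 once the genes under the filter were added. H4 had 36.02 TPM in control and 60.6 in hypoxia, a difference of 0.73, with 28.8, 29.4, 39.9, 23.9 and 26.0 TPM in glucose depletion, glutamine depletion, ER stress, oxidative stress and osmotic stress. H2A had 61.5 TPM in control, 63.5 in glucose depletion, 48.6 in glutamine depletion, 60.3 in hypoxia, 43.0 in ER stress, 39.97 in oxidative stress and 45.6 in osmotic stress. The H2A sum was therefore lower in ER stress, by 0.51, where the H3 sum was higher. H2B had 177 TPM in control, 263 in hypoxia and 233 in ER stress, and between 156 and 188 in the rest. The H1 sum followed Hist1h1c, from 43.4 TPM in control to 91.2 in glutamine depletion, a log2 difference of 1.05, and was between 31.1 and 67.2 in the rest.

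**Figure D5:**
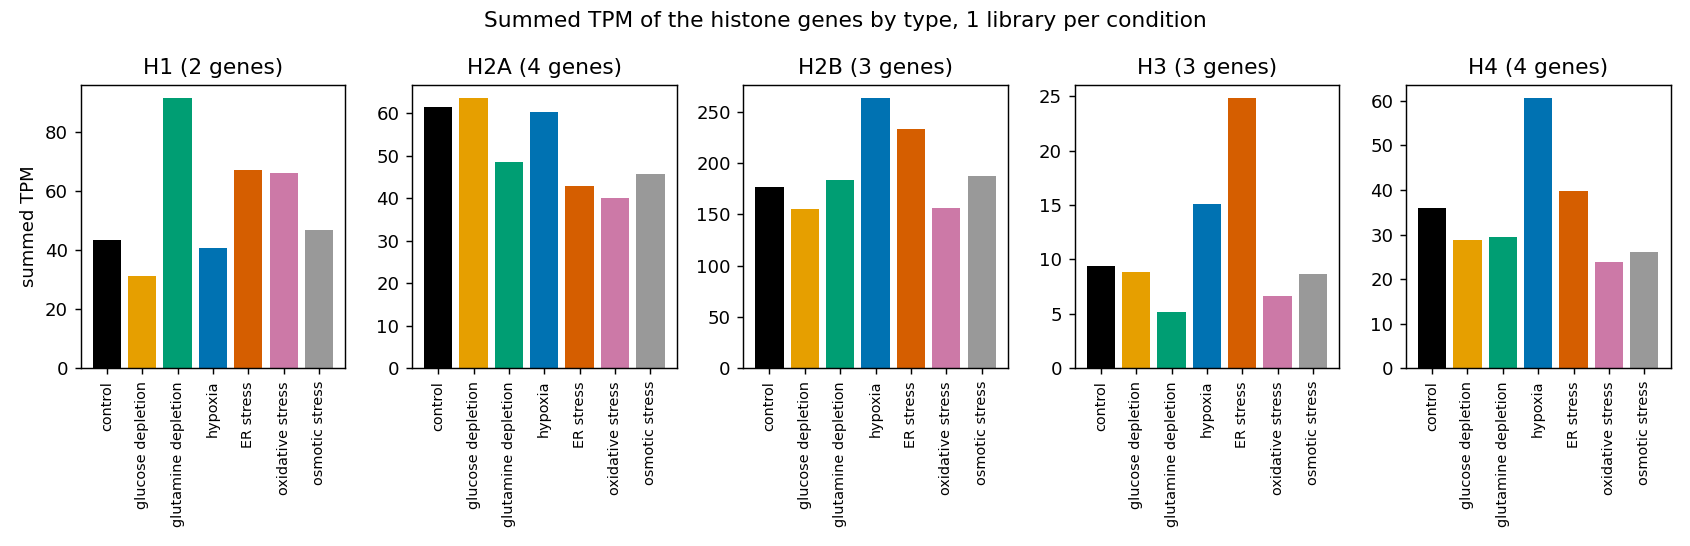
Summed TPM of the described histone genes of each type in each of 7 libraries, with 1 bar per library and a separate axis from 0 for each type. The H1 sum is highest in glutamine depletion (91.2 TPM), H3 in ER stress (24.8) and H2B and H4 in hypoxia (263 and 60.6).

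The genes were also summed by their annotated transcript end. The 5 genes with a poly(A) signal or the spliced transcript summed to 247 TPM in control, 212 in glucose depletion, 292 in glutamine depletion, 332 in hypoxia, 310 in ER stress, 231 in oxidative stress and 253 in osmotic stress. The other 11 summed to 80.6 TPM in control, 75.6 in glucose depletion, 65.9 in glutamine depletion, 108 in hypoxia, 98.0 in ER stress, 61.8 in oxidative stress and 61.6 in osmotic stress. All the genes up in hypoxia and in ER stress were among these 11, which are most of the 16 genes. Not all of the 11 are annotated to end near the stem-loop. Hist1h1d continues past it for 4884 bases, Hist1h3d for 752, Hist2h3c2 for 377 and Hist1h2bg for 155. The 2 sums differed from control by much the same in hypoxia, at 0.43 and 0.42 on the log2 scale, and in ER stress, at 0.33 and 0.28. In glutamine depletion they lay on opposite sides, at 0.24 for the 5 and -0.29 for the 11, but without Hist1h1c the sum of the first group was 205 TPM in control and 204 there. The 54 genes under the filter summed to 23.4 TPM in control and 51.2 in ER stress, and to 15.9 to 28.1 TPM in the other conditions.

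RNAs that normally carry no poly(A) tail were read as a check on what the capture let through. The 22 listed small and structural RNAs summed to 48.6 TPM in control, 28.3 in glucose depletion, 31.7 in glutamine depletion, 70.3 in hypoxia, 52.9 in ER stress, 36.5 in oxidative stress and 51.2 in osmotic stress. The hypoxia sum rested on Rny3: without it the sum was 40.2 TPM in hypoxia and 48.6 in control. Rny3, a Y RNA, was at 30.1 TPM in hypoxia and 12.2 in ER stress and listed at 0 in the other 5 libraries, while Rny1 was at 15.1 TPM in control, 4.62 in glucose depletion, 4.64 in osmotic stress and listed at 0 in the other 4. Rn7sk, which holds the elongation factor P-TEFb inactive, had 6.63 TPM in control, 20.1 in ER stress and 16.5 in osmotic stress, and Rpph1, the RNA of RNase P, had 4.70 in control and 1.02 in ER stress. The part of uneven capture of tail-less RNA in the histone values was not tested.

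Replacement histones, made outside S phase as well, were within 2-fold of control or lower. Of 11 variant histone genes, 0 were past 2-fold in glucose depletion, glutamine depletion or hypoxia, 2 were down in ER stress (11.0% of all genes), 1 in oxidative stress (4.85%) and 2 in osmotic stress (8.76%). H2afv, an H2A.Z gene, had 56.6 TPM in control and 19.0 in ER stress. Cenpa, the histone H3 of centromeres, went from 60.2 to 25.4 TPM in ER stress, 28.0 in oxidative stress and 27.1 in osmotic stress. H2afx, whose phosphorylated protein marks DNA breaks, went from 59.2 to 26.1 TPM in osmotic stress. In ER stress, then, the H3 sum of the clustered genes was higher while 2 variants were past 2-fold lower and 9 within 2-fold. The median log2 difference of the 11 variants there was -0.25. Of the H3 variants within 2-fold, H3f3a went from 629 to 315 TPM, -0.99 on the log2 scale, and H3f3b from 317 to 347 TPM.

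The genes that make and process histone mRNA were nearly all within 2-fold. Of 11 such genes averaging 2 TPM or more, 1 was past it, in osmotic stress, where 8.76% of all genes were down: Casp8ap2, a component of histone locus bodies, with 12.4 TPM in control and 4.73 there. Slbp, which binds the stem-loop, had 57.5 TPM in control, 52.7 in glucose depletion, 44.9 in glutamine depletion, 39.5 in hypoxia, 39.9 in ER stress, 43.6 in osmotic stress and 35.7 in oxidative stress, with control the highest. Npat, the coactivator of histone transcription, had 14.1 TPM in control, 7.10 in osmotic stress and 11.8 to 15.1 elsewhere. Lsm10, of the U7 particle that cuts histone pre-mRNA, was 0.91 lower on the log2 scale in osmotic stress, within 2-fold.

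Histone chaperones, which carry new histones to DNA, had 1 gene up and 2 down of 11 in ER stress, where 8.6% of all genes were up and 11.0% down, and 1 down in osmotic stress, where 8.76% were. These counts are near the shares of all genes. The 2 that were down in ER stress belong to the CAF-1 complex, which deposits H3 and H4 behind the fork: Chaf1b went from 26.0 to 10.5 TPM and Chaf1a from 22.8 to 10.3. Daxx, a chaperone of the variant H3.3, had 20.6 TPM in control, 39.1 in ER stress and 9.35 in osmotic stress.

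S-phase genes were read beside the histones because histone mRNA normally follows DNA synthesis. In ER stress 6 of 30 were down, against 11.0% of all genes, and 1 was up, against 8.6%, with a median log2 difference of -0.59, while the median over the 16 histone genes was 0.48. Tk1, the thymidine kinase of S phase, had 56.6 TPM in control, 51.5 in glucose depletion, 35.0 in glutamine depletion, 39.1 in hypoxia, 11.0 in ER stress, 32.3 in oxidative stress and 40.2 in osmotic stress. Ung, a uracil-DNA glycosylase, was the gene past 2-fold up in ER stress, at 24.4 TPM against 8.40 in control. Cdc6, Cdt1 and Cdc45 were among those higher there within 2-fold. Gins3, of the replicative helicase, had 6.25 TPM in control and 1.30 in osmotic stress. Hypoxia had 1 of the 30 down and a median of -0.44, glutamine depletion 1 down and -0.38, oxidative stress 1 down and -0.33, osmotic stress 2 down and -0.20, and glucose depletion 0 either way and 0.09. The medians of both lists were under 0 in glutamine depletion, oxidative stress and osmotic stress, and on opposite sides of 0 in glucose depletion, hypoxia and ER stress, with a histone median of only 0.03 in hypoxia.

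Fibroblast markers were 2 of 8 down in ER stress, against 11.0% of all genes, with Col3a1 at 1479 TPM in control and 352 there and Pdgfrb at 129 and 57.6, and 0 of 8 past 2-fold elsewhere. The 7 macrophage markers summed to between 7.16 and 16.6 TPM, most of it Cd68 at 5.26 to 9.77 TPM. The part of either in the histone values was not tested.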

How the data were processed

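RNA-seq was performed on 7 MEF cultures, 1 for each condition, from poly(A)-selected, stranded, paired-end libraries. The authors aligned reads with Kallisto 0.43.1 (default settings, which do not use strand) to GRCm38 cDNA of Ensembl, and deposited a TPM value for each gene, the sum over its transcripts. TPM hold no read counts, so the depth is unknown and no counting interval can be given. Between 19819 and 21154 genes were above 0 in each library.

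From the deposited TPM, log2(TPM + 1) of control was subtracted from that of each condition, and differences past 2-fold were counted among the 12909 of 49382 genes averaging 2 TPM or more. The pseudocount and the 2-fold rule follow the study. No test across samples was run, since each condition had 1 library. Summed values use the same genes. Settings tried were pseudocounts of 0.1 and 5 TPM, no filter or one of 10 TPM, thresholds of 1.5-fold and 3-fold, centring on the median gene, removal of mitochondrially encoded genes or of histone genes with known polyadenylated forms, and the median library as reference. Restriction to genes with at least 50% of 31-base stretches of their own, and summing Hist2h2aa1 with Hist2h2aa2, were added after seeing the data.

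The genes and companion lists were chosen with earlier results of these data known. The genes named are the 3 most abundant of each type, those with known polyadenylated forms, those that differed most in each condition, Slbp, Npat, and up to 3 genes of each companion list with the largest difference. Other names were added where a result turned on them. They are Rn7sk, Col1a1, Ptprc, Adgre1, H3f3a, H3f3b, Cdc6, Cdt1, Cdc45, the genes at the cut and H3 genes under it. Genes that overlap a histone gene or share its stretches are named as well. Transcripts and coordinates are those of GENCODE M21 and promoters those of RefSeq. Python 3.11.15, pandas 2.3.3 and numpy 2.4.6 were used.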

Additional observations from a re-analysis of the deposited data

How the results depend on the processing

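No paired analysis was possible because each condition had 1 library. No setting turned the direction of a value past 2-fold, but few values could turn in this way. No median was past 2-fold, and as reported only the sums of H1 in glutamine depletion and H3 in ER stress were. Some smaller sums changed sign, as given below. Of 60 medians, 59 moved by less than 1.5-fold (1.2-fold where the sign changed). Restricted to genes with at least 50% of their 31-base stretches to themselves, the median in glutamine depletion was 0.084.

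Numbers past 2-fold moved by over 1.5 times in 61 of 144 recomputed counts, and in all 12 with no filter, where genes under 2 TPM enter as well. They are given as up and down, in the order glucose depletion, glutamine depletion, hypoxia, ER stress, oxidative stress, osmotic stress. As reported they were 1 and 3, 1 and 3, 4 and 0, 4 and 0, 0 and 5, 1 and 2. With no filter they were 3 and 8, 2 and 5, 10 and 2, 13 and 2, 4 and 8, 5 and 4. A mean of at least 10 TPM gave 0 and 1, 1 and 0, 1 and 0, 0 and 0, 0 and 1, 0 and 1. A pseudocount of 5 TPM gave 0 and 1, 1 and 1, 1 and 0, 1 and 0, 0 and 1, 0 and 1, and one of 0.1 TPM gave 1 and 3, 1 and 4, 5 and 0, 4 and 0, 1 and 5, 1 and 3. At 3-fold they were 1 and 1, 0 and 1, 1 and 0, 2 and 0, 0 and 2, 1 and 1, and at 1.5-fold 1 and 4, 1 and 6, 5 and 0, 8 and 2, 2 and 6, 1 and 3. The median library as reference gave 0 and 1, 0 and 3, 5 and 0, 4 and 0, 1 and 3, 0 and 0. Genes with at least 50% of stretches of their own gave 0 and 0, 1 and 0, 1 and 0, 1 and 0, 0 and 2, 0 and 0. Centring gave 1 and 3, 1 and 2, 4 and 0, 4 and 0, 1 and 3, 1 and 1, and summing Hist2h2aa1 with Hist2h2aa2 gave 1 and 2, 1 and 2, 4 and 0, 4 and 0, 0 and 4, 1 and 1. Without mitochondrially encoded genes only oxidative stress moved, to 1 and 5. Without known polyadenylated forms, glutamine depletion had 0 up and oxidative stress 4 down.

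For the summed types, leaving out known polyadenylated forms changed most, since it takes out Hist1h1c and Hist1h2bc. The log2 difference of H1 was then 0.15 in glucose depletion, 0.33 in glutamine depletion (no longer past 2-fold), -0.91 in osmotic stress and -0.18 in oxidative stress, and that of H2B -0.89 in glucose depletion, 1.15 in ER stress (now past 2-fold) and 0.51 in oxidative stress. Against the median library, H1 in glutamine depletion was 0.95, H4 in hypoxia 1.02 and H2A in hypoxia 0.30. With no filter, H3 in glutamine depletion was -0.076; the cause was not tested. The other 139 of 150 summed values moved by less than 1.5-fold (1.2-fold where the sign changed) and stayed on their side of 2-fold. Depth is unknown, so values near 0 TPM, as in Hist2h2aa1, Hist1h2bj and Hist1h4m, have no error attached.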
